A study of Homo sapiens with 12 samples.

Results

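Aminoacyl-tRNA synthetases join each amino acid to its transfer RNA before translation. In the count table of 60671 genes, 35 were followed here, 19 coding for the enzymes of the cytosol and 16 for those of mitochondria. The members were taken by gene name: the cytosolic genes carry the suffix 1 or are EPRS1, FARSA and FARSB, and the mitochondrial genes carry the suffix 2. RNA came from BJ-5ta, a line of human foreskin fibroblasts kept dividing by telomerase (hTERT), either with LEO1 (WT) or with LEO1 knocked out by CRISPR-Cas9 (ΔLEO1). LEO1 is a subunit of the PAF1 complex, which travels with RNA polymerase II. Cells of each genotype were kept in medium with 10% fetal bovine serum or for 10 days in 0.1% serum, which stops fibroblasts from dividing, and 3 libraries were made for each of the 4 groups. The libraries carry running numbers, 1 to 3 for WT in 10% serum, 7 to 9 for WT in 0.1%, 4 to 6 for ΔLEO1 in 10% and 10 to 12 for ΔLEO1 in 0.1%. Every ΔLEO1 library came from 1 clone, so the clone and the loss of LEO1 cannot be told apart. Nothing in the labels says that the libraries of a group were separate cultures, so the p-values measure only the spread between libraries, which may be technical.

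All of these enzymes are coded in the nucleus. The cytosolic set charges the tRNAs used on cytosolic ribosomes, and the mitochondrial set is imported to charge the tRNAs coded by mitochondrial DNA, which serve the few proteins of the respiratory chain made inside the organelle. GARS1 and KARS1 serve both places, and QARS1 has no separate mitochondrial partner. Several cytosolic enzymes (EPRS1, IARS1, KARS1, LARS1, MARS1, QARS1 and RARS1) sit in the multisynthetase complex on the scaffold proteins AIMP1 and AIMP2, whereas the rest are outside it. When uncharged tRNA builds up, the kinase GCN2 (EIF2AK4) allows translation of the transcription factor ATF4, and many cytosolic synthetase genes are known targets of ATF4.

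ATF4 binds a composite element with the letters TGATGNAA. Of the 19 cytosolic members, 12 are listed as ATF4 targets in common knowledge of this pathway (AARS1, CARS1, EPRS1, GARS1, IARS1, LARS1, MARS1, NARS1, SARS1, TARS1, WARS1 and YARS1), and the other 7 are FARSA, FARSB, HARS1, KARS1, QARS1, RARS1 and VARS1. Promoter sequence, 250 bases before to 50 after the start, was found in RefSeq (GRCh38.p14) for 30 members and not for LARS1, VARS1, YARS1, AARS2 and VARS2. On either strand the element was present in 6 of 10 listed members with a promoter, in 0 of 6 other cytosolic members and in 1 of 14 mitochondrial members, against 3.67% of 27305 promoters. The matched stretches are shown because the listed and other cytosolic enzymes are compared throughout. They run 5′ to 3′ along the gene, with the match (TGATGNAA, or TTNCATCA where it lay on the opposite strand) in capitals.
AARS1, chr16:70289675-70289704, minus strand: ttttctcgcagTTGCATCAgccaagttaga
CARS1, chr11:3057407-3057436, minus strand: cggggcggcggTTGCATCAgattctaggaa
IARS1, chr9:92293692-92293721, minus strand: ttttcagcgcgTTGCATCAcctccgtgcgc
MARS1, chr12:57488053-57488082, plus strand: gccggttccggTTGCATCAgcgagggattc
NARS1, chr18:57621804-57621833, minus strand: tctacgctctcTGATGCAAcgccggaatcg
TARS1, chr5:33440956-33440985, plus strand: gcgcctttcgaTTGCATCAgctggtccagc
YARS2, chr12:32756076-32756105, minus strand: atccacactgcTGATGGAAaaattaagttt
The 6 cytosolic matches hold TGATGCAA or its reverse complement, and the match of YARS2 holds TGATGGAA. A match is a run of letters and was not tested for binding.

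The libraries held 26240632 to 45315560 counts in genes and 244023 to 1090393 counts in the ERCC RNAs, synthetic standards added to each sample, which made up 0.625% to 3.24% of all counts. Members took 0.266% to 0.354% of gene counts, each share known to within a 95% Wilson interval at most 0.00403 percentage points wide, which covers counting error only. LEO1 had 682 to 1001 counts per WT library and 23 to 55 per ΔLEO1 library. In each group the highest-numbered library (3, 6, 9 and 12) stood apart, with a chi-square per gene of 3.05 to 12.3 between the other two libraries and 67.2 to 146 in pairs that held it. The fibroblast markers COL1A1 and VIM were abundant in every library, the epithelial marker EPCAM was at 0.22 CPM or less, and KRT18, which fibroblasts in culture can also make, was at 93.1 to 412 CPM in WT and 479 to 1152 CPM in ΔLEO1. Summed markers of epithelial cells stood at 163 to 1182 CPM, nearly all of it KRT18 and KRT8, those of blood cells at 2.08 to 9.07 CPM and those of endothelium at 0.393 to 5.40 CPM. The leukocyte marker PTPRC reached 0.613 CPM in WT and 7.25 CPM in ΔLEO1. What part these markers have in the results was not tested.

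Changes are given on 2 scales. On the ERCC scale, which was that of the study, counts were divided by the ERCC counts of their library and multiplied by 1000000, so a lower value means fewer counts for the same amount of standard. In such bulk samples fewer cells and less RNA per cell cannot be told apart. The methods do not say whether the standards were added per cell or per amount of RNA. A different input of RNA therefore cannot be told apart from these either. On the relative scale, counts were divided by library totals adjusted by TMM (trimmed mean of M values) over the genes and given in CPM (counts for every 1000000), so a change is one relative to most other genes. A member is called where edgeR's adjusted p, corrected over the 13236 genes tested, was under 0.05.

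In WT cells in 10% serum the cytosolic synthetases were the more abundant set, but not gene by gene. Levels per kilobase of exon, on the relative scale, were highest for GARS1 at 77.3 ± 1.84 CPM per kb (SD, n = 3), AARS1 at 62.8 ± 0.383, SARS1 at 57.8 ± 1.98 and EPRS1, which charges both glutamate and proline, at 46.6 ± 0.912. The lowest cytosolic enzyme was HARS1 at 6.95 ± 0.703. Among mitochondrial enzymes RARS2 at 34.6 ± 0.638 and IARS2 at 26.6 ± 0.926 stood well above the other members tested, which ran from 0.591 ± 0.13 for SARS2 to 5.48 ± 0.858 for YARS2. RARS2 was thus above 13 of 19 cytosolic members in this group, and IARS2 above 9. The order of neighbours such as IARS1 (38.7 ± 2.87) and NARS1 (37.9 ± 0.96) does not exceed their spread.

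**Figure D1:**
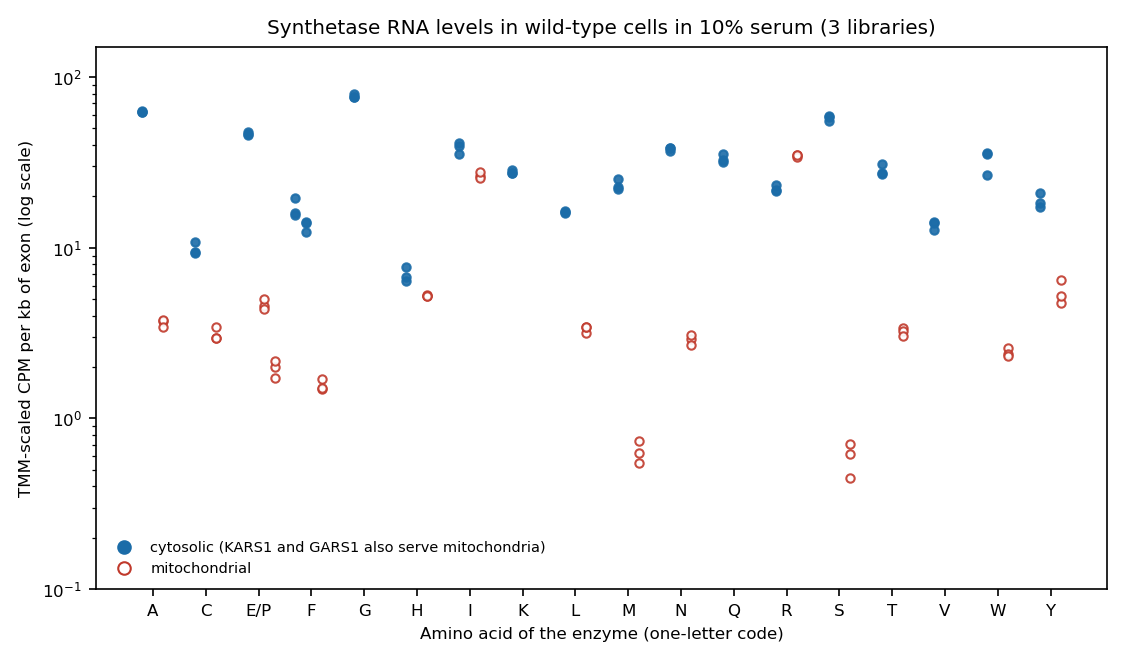
Level of each member except VARS2 in the 3 WT libraries in 10% serum, in TMM-scaled CPM per kb of exon on a log scale, by the amino acid its enzyme charges. Filled points are cytosolic and open points mitochondrial enzymes; RARS2 (R) lies above RARS1, IARS2 (I) and HARS2 (H) lie close to their cytosolic partners, and the gap is widest for methionine and serine.

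Set beside the enzyme for the same amino acid, the cytosolic gene exceeded the mitochondrial gene per kilobase by 37.2 ± 6.26 times for methionine (SD, n = 3), 24.0 ± 2.95 times for proline (EPRS1 over PARS2), 17.2 ± 0.948 times for alanine and 13.4 ± 1.77 times for tryptophan. The ratio was only 1.46 ± 0.157 for isoleucine and 1.33 ± 0.139 for histidine, and for arginine it was below 1, at 0.641 ± 0.0245. RARS2 was above RARS1 in each of the 12 libraries, with a ratio of RARS1 to RARS2 between 0.596 and 0.793. The SARS1 to SARS2 ratio, 101 ± 20.5, is uncertain, because 46.2% of SARS2 exon bases are shared with the same-strand gene AC011455.2, and reads there may be left out of the count. VARS2, with 22.0% of its exon bases shared with GTF2H4, had 1 to 11 counts per library and was not tested. HARS1 and HARS2 face away from each other on chromosome 5 with start sites 85 bases apart (140691370 and 140691455 in GRCh38), and 11.7% of HARS2 exon bases lie opposite exons of HARS1.

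Summed per kilobase, the cytosolic set stood at 5.85 ± 0.138 times the mitochondrial set in WT in 10% serum (SD, n = 3), 5.73 ± 0.786 times in WT in 0.1%, 5.36 ± 0.44 times in ΔLEO1 in 10% and 6.13 ± 0.276 times in ΔLEO1 in 0.1%. The libraries of WT in 0.1% lay on both sides, with libraries 7 (5.24) and 8 (5.31) below and library 9 (6.64), which stood apart, above every WT library in 10% serum. In ΔLEO1 the ranges did not overlap, 4.87 to 5.71 in 10% serum and 5.88 to 6.43 in 0.1%. With 3 libraries against 3 an exact permutation test cannot give a two-sided p below 0.1.

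The first comparison asks how low serum moved the synthetases in WT cells. Per ERCC standard, 17 of 34 tested members fell and 0 rose: 13 of 19 cytosolic and 4 of 15 mitochondrial enzymes, where 36.1% of all tested genes were called lower and 0.944% higher. All 34 estimates were negative, as were 95% of all genes. The median log2 fold change was -1.17 over cytosolic and -1.05 over mitochondrial members, beside -0.97 over all genes. The largest falls were those of EPRS1, GARS1 and IARS1 in the cytosol and of RARS2 and CARS2 in mitochondria.

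On that scale EPRS1 stood at 31191, 26495 and 16737 ERCC-scaled counts in the 10% libraries and 8184, 9529 and 8751 in the 0.1% libraries. Its groups did not overlap, with a log2 fold change of -1.49 ± 0.44 (SE; edgeR adjusted p = 0.00824). GARS1, the glycyl enzyme of both compartments, went from 38987, 32376 and 22148 to 9982, 12782 and 11621, a log2 change of -1.44 ± 0.44 (SE; edgeR adjusted p = 0.0104). RARS2, the mitochondrial arginyl enzyme, went from 11008, 8827 and 5967 to 3128, 3982 and 2624, a log2 change of -1.41 ± 0.45 (SE; edgeR adjusted p = 0.0141). In all 3 genes library 3 was the lowest of its group and still above every low-serum library. MARS2, the mitochondrial methionyl enzyme, differed from them: it read 273, 169 and 128 in 10% serum and 174, 223 and 77.9 in 0.1%, ranges that overlap, with a log2 change of -0.26 ± 0.52 (SE; edgeR adjusted p = 0.644). IARS1 (log2 change -1.42 ± 0.44 SE, edgeR adjusted p = 0.012) and CARS2, the mitochondrial cysteinyl enzyme (log2 change -1.38 ± 0.46 SE, edgeR adjusted p = 0.0185), also fell. Groups did not overlap, with low serum below, in 18 of 19 cytosolic and 11 of 15 mitochondrial members, where 53.4% of all genes did the same. These counts lean on single libraries: without library 1 or 7, 0 members of either set were called, without library 2 there were 2 cytosolic and 0 mitochondrial calls, without library 9 there were 3 and 0, and without library 3, 11 or 12 there were 18, 19 and 19 cytosolic and 10, 10 and 11 mitochondrial calls. The quasi-likelihood test called 10 cytosolic and 2 mitochondrial members.

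**Figure D2:**
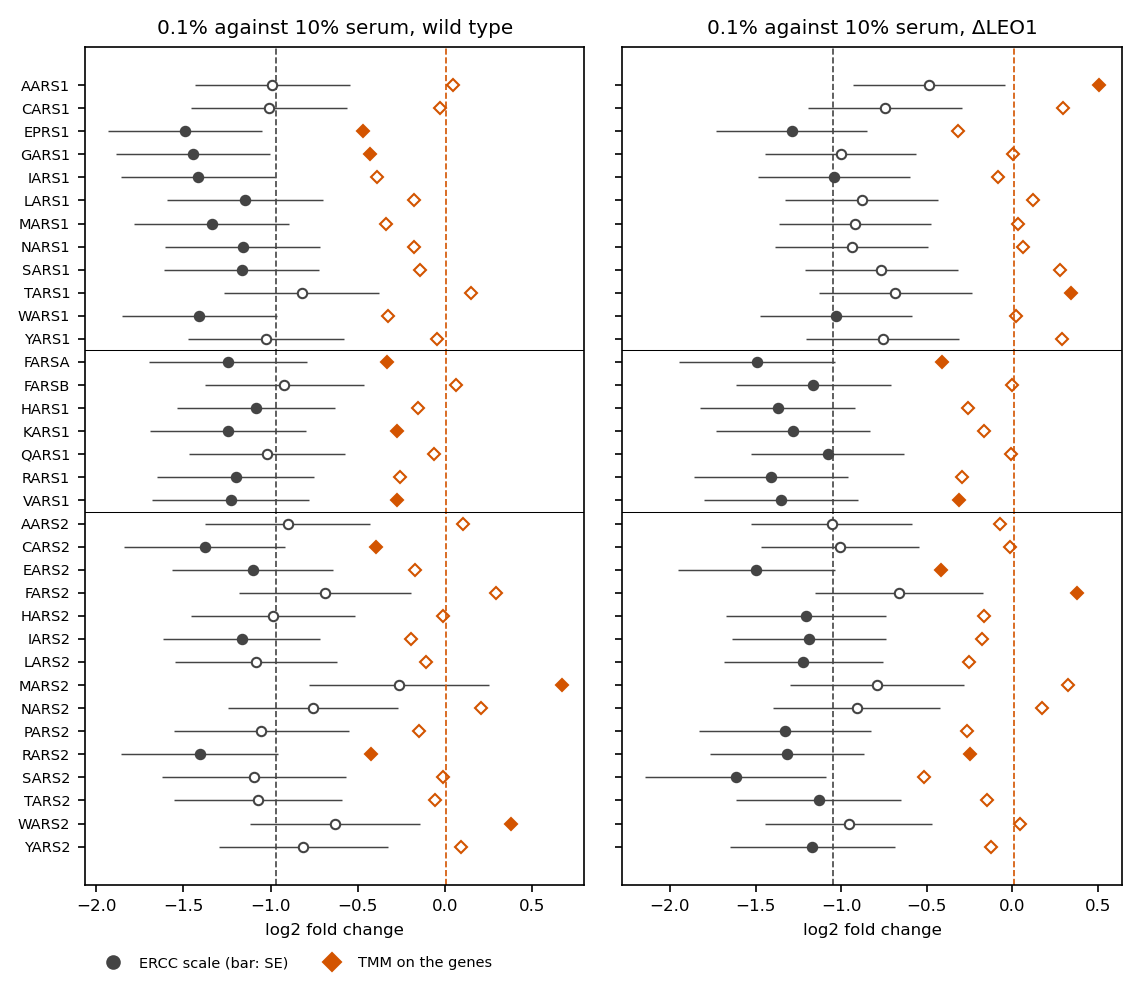
Log2 fold change of each tested member in 0.1% against 10% serum, in WT (left) and ΔLEO1 (right), on the ERCC scale (circles, bars SE) and the relative scale (diamonds), filled where the adjusted p is under 0.05; dashed lines mark the median of all genes on each scale. Rows are the 12 listed ATF4 targets, the 7 other cytosolic and the 15 mitochondrial members; on the ERCC scale every point lies below 0, and on the relative scale points fall on both sides of it.

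Relative to the other genes, 5 cytosolic members fell in WT cells in low serum (EPRS1, FARSA, GARS1, KARS1 and VARS1), 2 mitochondrial members fell (RARS2 and CARS2) and 2 mitochondrial members rose (MARS2 and WARS2), where 16.6% of all genes were called lower and 16.0% higher. The median was -0.18 over cytosolic and -0.012 over mitochondrial members. RARS2 went from 89.4, 86.3 and 88.9 CPM to 64.8, 63.4 and 68.8 CPM, a log2 change of -0.42 ± 0.10 (SE; edgeR adjusted p = 0.000157). It was lower in each low-serum library than in any other WT library, and its adjusted p stayed at 0.0061 or less with any 1 library left out. MARS2 had 2.22, 1.65 and 1.90 CPM in 10% serum and 3.60, 3.55 and 2.04 CPM in 0.1%, with a log2 change of 0.67 ± 0.25 (SE; edgeR adjusted p = 0.0266); libraries 7 and 8 were high and library 9 lay among the 10% libraries. WARS2, the mitochondrial tryptophanyl enzyme, rose from 9.93, 9.20 and 8.97 CPM to 12.3, 10.8 and 13.5 CPM, a log2 change of 0.38 ± 0.15 (SE; edgeR adjusted p = 0.0434), without overlap.

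EPRS1 on the same scale went from 253, 259 and 249 CPM to 169.5, 152 and 229 CPM (log2 change -0.47 ± 0.18 SE, edgeR adjusted p = 0.0283) and GARS1 from 316, 317 and 329.8 CPM to 207, 204 and 305 CPM (log2 change -0.43 ± 0.18 SE, edgeR adjusted p = 0.0458). In both genes library 9 lay near the 10% level while libraries 7 and 8 were low. WARS1, the cytosolic tryptophanyl enzyme, showed the same split, at 225, 228 and 170.5 CPM and then 129.9, 132 and 236 CPM, and was not called (log2 change -0.33 ± 0.28 SE, edgeR adjusted p = 0.381). AARS1 stood at 281, 282 and 284 CPM in 10% serum, with hardly any spread, and at 248, 229 and 398 CPM in 0.1% (log2 change 0.046 ± 0.21 SE, edgeR adjusted p = 0.889). Library 9 was the highest of all 12 for AARS1. The relative cytosolic calls also depended on single libraries: leaving out library 3 left 0, library 2, 7 or 8 left 1, library 1 or 4 left 2, and library 12 gave 7. The mitochondrial calls, 4 with all libraries, came to 1 without library 2, 3 or 7 and 2 without library 1 or 8.

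The same comparison was made in ΔLEO1 cells. Per ERCC standard 10 of 19 cytosolic and 9 of 15 mitochondrial members fell and 0 rose, where 47.2% of all genes were called lower and 0.975% higher. All 7 cytosolic members outside the ATF4 list fell, with a median of -1.35. Of the 12 listed members 3 fell (EPRS1, IARS1 and WARS1), where 8 had fallen in WT, and the difference between genotypes is tested by the interaction term below, and the median log2 change was -0.90, beside -1.05 over all genes. In WT cells the 2 lists had lain close together, at -1.20 and -1.16. The mitochondrial median in ΔLEO1 was -1.17.

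FARSA, the catalytic subunit of the phenylalanyl enzyme, went from 7670, 5819 and 4906 to 1982, 1154 and 3402 ERCC-scaled counts, a log2 change of -1.49 ± 0.45 (SE; edgeR adjusted p = 0.0114). AARS1, the alanyl enzyme, went from 22261, 16702 and 11279 to 9388, 5005 and 21412, a log2 change of -0.49 ± 0.44 (SE; edgeR adjusted p = 0.311). FARSA did not overlap between the serum levels, whereas for AARS1 library 12 lay close to library 4, the highest of the 10% libraries. TARS1, the threonyl enzyme, gave a log2 change of -0.68 ± 0.45 (SE; edgeR adjusted p = 0.163) and was not called either. In mitochondria EARS2, the glutamyl enzyme, fell from 4563, 3364 and 3387 to 1331, 679 and 2007, a log2 change of -1.50 ± 0.46 (SE; edgeR adjusted p = 0.0123). FARS2 read 1211, 939 and 809 and 550, 299 and 1023 and was not called (log2 change -0.66 ± 0.49 SE, edgeR adjusted p = 0.216). Library 12, with an ERCC share of 1.09% against 1.88% and 3.24% in libraries 10 and 11, held the highest ERCC-scaled value of its group of FARSA, AARS1, EARS2 and FARS2. SARS2 gave the lowest estimate, a log2 change of -1.62 ± 0.53 (SE; edgeR adjusted p = 0.017), on 42 to 96 counts per library. Groups did not overlap in 7 of 19 cytosolic and 11 of 15 mitochondrial members, with low serum below, where 50.9% of all genes did the same. Leaving out library 4, 10 or 11 left 0 calls in either set, library 5 left 6 cytosolic and 2 mitochondrial calls, and leaving out library 12 gave calls for all 19 cytosolic and all 15 tested mitochondrial members.

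Relative to the other genes, AARS1 and TARS1 rose and FARSA and VARS1 fell among cytosolic members, and FARS2 rose while EARS2 and RARS2 fell among mitochondrial members, where 16.5% of all genes were called higher and 12.9% lower. AARS1 rose from 144, 145 and 111 CPM to 182, 164 and 222 CPM, a log2 change of 0.51 ± 0.21 (SE; edgeR adjusted p = 0.0482), and every low-serum library lay above every 10% library. TARS1 rose from 151, 160.3 and 147 CPM to 178, 192 and 211 CPM, a log2 change of 0.34 ± 0.12 (SE; edgeR adjusted p = 0.0244), also without overlap. FARSA fell from 49.5, 50.5 and 48.2 CPM to 38.4, 37.9 and 35.2 CPM, a log2 change of -0.41 ± 0.13 (SE; edgeR adjusted p = 0.00826), and its log2 change in WT was -0.33 ± 0.13 (SE; edgeR adjusted p = 0.0369). RARS2 fell here too, from 84.2, 81.6 and 83.0 CPM to 74.3, 68.0 and 67.4 CPM (log2 change -0.25 ± 0.10 SE, edgeR adjusted p = 0.0431). FARSA, VARS1 and RARS2 were thus the members called lower on this scale in both genotypes; no member was called higher in both. Per ERCC standard 8 cytosolic members (EPRS1, FARSA, HARS1, IARS1, KARS1, RARS1, VARS1 and WARS1) and 3 mitochondrial ones (EARS2, IARS2 and RARS2) were called lower in both. On that scale 36.1% of all genes were called lower in WT and 47.2% in ΔLEO1. The share called in both is not given on either scale, so these overlaps are not results about the members. Of the relative calls, 0 cytosolic ones were left without library 5 and 0 mitochondrial ones without library 6, and 7 cytosolic ones were made without library 9; without library 4, 6 or 11, 2 cytosolic ones were left, and without library 4, 5 or 11, 1 mitochondrial one.

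The next comparison sets ΔLEO1 against WT in the same serum. Per ERCC standard edgeR called 0 members in either serum, where 4.64% of genes were called lower and 4.20% higher in 10% serum, and 3.59% and 3.85% in 0.1%. At an unadjusted p under 0.05 there was 1 member, MARS2 in 10% serum, and 0 in 0.1%, and edgeR's quasi-likelihood test also called 0 in both. Without library 12, MARS2 was called in 10% serum. The standard error of a log2 change on this scale was 0.44 to 0.53 over the members, which limits what could be seen. MARS2 stood at 273, 169 and 128 ERCC-scaled counts in WT and 497, 393 and 339 in ΔLEO1 in 10% serum, a log2 change of 1.12 ± 0.51 (SE; edgeR adjusted p = 0.221). AARS1 lay lowest against the median of all genes in 10% serum (log2 change -0.72 ± 0.44 SE, beside 0.35), and the other members farthest from that median were SARS1 (-0.31 ± 0.44 SE), IARS1 (0.025 ± 0.44 SE), CARS2 (-0.14 ± 0.46 SE) and PARS2 (0.63 ± 0.50 SE). In 0.1% serum, where the median of all genes was 0.27, they were AARS1 (-0.21 ± 0.44 SE), NARS1 (0.74 ± 0.45 SE), EPRS1 (0.70 ± 0.44 SE), SARS2 (-0.29 ± 0.53 SE), WARS2 (-0.13 ± 0.49 SE) and MARS2 (0.59 ± 0.51 SE). None of these passed, with edgeR adjusted p-values of 0.221 to 0.977 in 10% and 0.524 to 0.933 in 0.1% serum.

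Relative to the other genes in 10% serum, AARS1, SARS1, QARS1 and CARS2 were lower in ΔLEO1 and MARS2 was higher, where 21.8% of all genes were called lower and 17.7% higher. AARS1 stood at 281, 282 and 284 CPM in WT and 144, 145 and 111 CPM in ΔLEO1. This was the largest difference of any member in this serum, a log2 change of -1.08 ± 0.21 (SE; edgeR adjusted p = 1.61e-06), and its adjusted p was 0.000178 or less with any 1 library left out. SARS1, the seryl enzyme, stood at 225, 227 and 213 CPM and 150.1, 148 and 119.6 CPM (log2 change -0.67 ± 0.16 SE, edgeR adjusted p = 0.00014), and its largest adjusted p with 1 library left out was 0.00394. CARS2 stood at 30.9, 30.8 and 36.1 CPM and 21.8, 22.0 and 25.8 CPM (log2 change -0.49 ± 0.15 SE, edgeR adjusted p = 0.00552). In all 3 genes each ΔLEO1 library lay below each WT library. MARS2 stood at 2.22, 1.65 and 1.90 CPM and 3.21, 3.41 and 3.33 CPM (log2 change 0.79 ± 0.25 SE, edgeR adjusted p = 0.00497), with every ΔLEO1 library above. QARS1 gave a log2 change of -0.28 ± 0.12 (SE; edgeR adjusted p = 0.0477) and lost its call without a single library (largest adjusted p 0.196), as did MARS2 (0.0506). The count of mitochondrial calls, 2, came to 1 without library 2. Cytosolic calls numbered 2 in place of 3 without library 1, 2, 4, 5, 7, 8 or 11.

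RNA of ATF4, which is no member, stood at 332, 339.6 and 335 CPM in WT and 156, 153 and 158 CPM in ΔLEO1 in 10% serum (log2 change -1.11 ± 0.14 SE, edgeR adjusted p = 1.98e-14). Because ATF4 is also controlled in translation, its RNA does not give its activity. Per ERCC standard this was a log2 change of -0.76 ± 0.44 (SE; edgeR adjusted p = 0.391). In low serum ATF4 RNA was relatively higher in WT (log2 change 0.42 ± 0.14 SE, edgeR adjusted p = 0.00915). There the listed members EPRS1 and GARS1 were called lower and the others, AARS1 among them, were not called. ATF4 was also relatively higher in ΔLEO1 (log2 change 0.96 ± 0.14 SE, edgeR adjusted p = 1.67e-10), where of the listed members AARS1 and TARS1 were called higher. For ΔLEO1 against WT in 10% serum, the relative median over the 12 listed members was -0.14, with 10 of 12 below 0. Over the 7 other cytosolic members it was 0.16, with 2 of 7 below 0. Of the listed members only AARS1 and SARS1 were called on this scale, where 21.8% of all genes were called lower. The share of all genes below 0 is not given. The lists were chosen with results of these data known, and the difference between them was not tested. Per ERCC standard, where the median of all genes was 0.35, the medians were 0.23 and 0.52, with 2 of 12 and 0 of 7 below 0. The promoters of AARS1, which differed, and of CARS1, IARS1, MARS1, NARS1 and TARS1, which were not called (log2 changes of -0.088, -0.31, -0.21, 0.17 and -0.091), all hold the element. Those of SARS1, which is a listed member, and of QARS1, CARS2 and MARS2 hold no match, though all were called on the relative scale.

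In 0.1% serum the relative calls were AARS1 and WARS2, lower in ΔLEO1, and NARS1 and KARS1, higher, where 17.6% of all genes were called lower and 15.4% higher. AARS1 stood at 248, 229 and 398 CPM in WT and 182, 164 and 222 CPM in ΔLEO1, a log2 change of -0.62 ± 0.21 (SE; edgeR adjusted p = 0.0107). NARS1, the asparaginyl enzyme, stood at 127, 132 and 152 CPM and 165, 173 and 207 CPM, a log2 change of 0.41 ± 0.12 (SE; edgeR adjusted p = 0.00392). NARS1 kept an adjusted p of 0.043 or less with any 1 library left out, while AARS1 reached 0.0975. KARS1 gave a log2 change of 0.29 ± 0.11 (SE; edgeR adjusted p = 0.0264). WARS2 stood at 12.3, 10.8 and 13.5 CPM and 8.69, 7.59 and 9.89 CPM, a log2 change of -0.48 ± 0.16 (SE; edgeR adjusted p = 0.00838), and each of the 4 had groups that did not overlap. The cytosolic count of 3 came to 1 without library 11 and to 2 without library 7, 8 or 10, and the mitochondrial count of 1 to 0 without library 11 and to 3 without library 12.

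**Figure D3:**
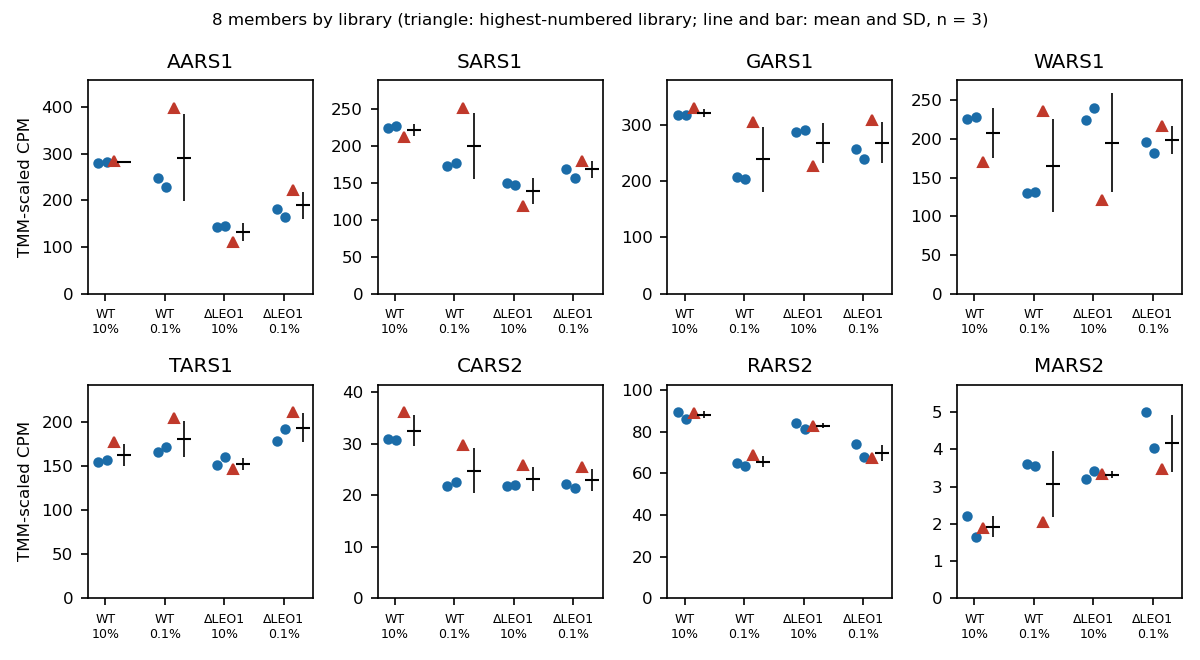
TMM-scaled CPM of 8 members in the 12 libraries by group, with the highest-numbered library of each group as a triangle and the mean and SD (n = 3) beside the points; axes start at 0. AARS1 and SARS1 are lower in ΔLEO1 in 10% serum, and library 9 lies above its group in AARS1, SARS1, GARS1, WARS1 and CARS2 but below it in MARS2.

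Whether the serum response differed between genotypes was asked by the interaction term, the log2 response of ΔLEO1 minus that of WT. With 12 libraries edgeR called 0 members on either scale. Per ERCC standard 0 had an unadjusted p under 0.05, and 0.0831% of genes were called lower and 0.136% higher; on the relative scale 0 had an unadjusted p under 0.05, with 1.02% and 3.06% of genes called. The signs of the estimates are given by list, without a test. All 12 listed ATF4 targets were positive on both scales, with medians of 0.32 (ERCC) and 0.33 (relative). The other 7 cytosolic members were all negative on the ERCC scale and 5 of 7 were negative on the relative scale, with medians of -0.21 and -0.038. Mitochondrial members were negative in 12 of 15 (ERCC) and 11 of 15 (relative), with medians of -0.15 and -0.14; over all genes the medians were -0.067 and 0.018. The lists were chosen with results of these data known and no test is given for them. Both scales use the same counts, and the listed members moved together between libraries, so their signs are not independent of each other.

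The largest estimates on the ERCC scale were those of AARS1 (0.50 ± 0.63 SE), GARS1 (0.44 ± 0.63 SE) and MARS1 (0.42 ± 0.63 SE), and at the other end MARS2 (-0.53 ± 0.73 SE) and SARS2 (-0.52 ± 0.75 SE). CARS2, at 0.37 ± 0.65 SE, was the highest mitochondrial estimate. Each of these 6 had an edgeR adjusted p of 1. With libraries 3, 6, 9 and 12 left out, 2 libraries a group remained and 8 members were called on the relative scale: AARS1 (0.50), SARS1 (0.50), WARS1 (0.50), GARS1 (0.40), YARS1 (0.29), CARS1 (0.25) and CARS2 (0.47) were higher and YARS2 (-0.48) was lower, where 17.5% and 9.99% of 12911 genes were called. In this part of the same data all 12 listed members were positive, 4 of the 7 others were negative, and the medians were 0.25 and -0.083. With the same 8 libraries per ERCC standard all 34 tested members were negative, so that the signs of AARS1 (-0.17), GARS1 (-0.28), MARS1 (-0.45) and CARS2 (-0.23) turned, and the median of all genes was -0.67. With library 9 alone left out the relative scale gave 3 cytosolic calls.

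**Figure D4:**
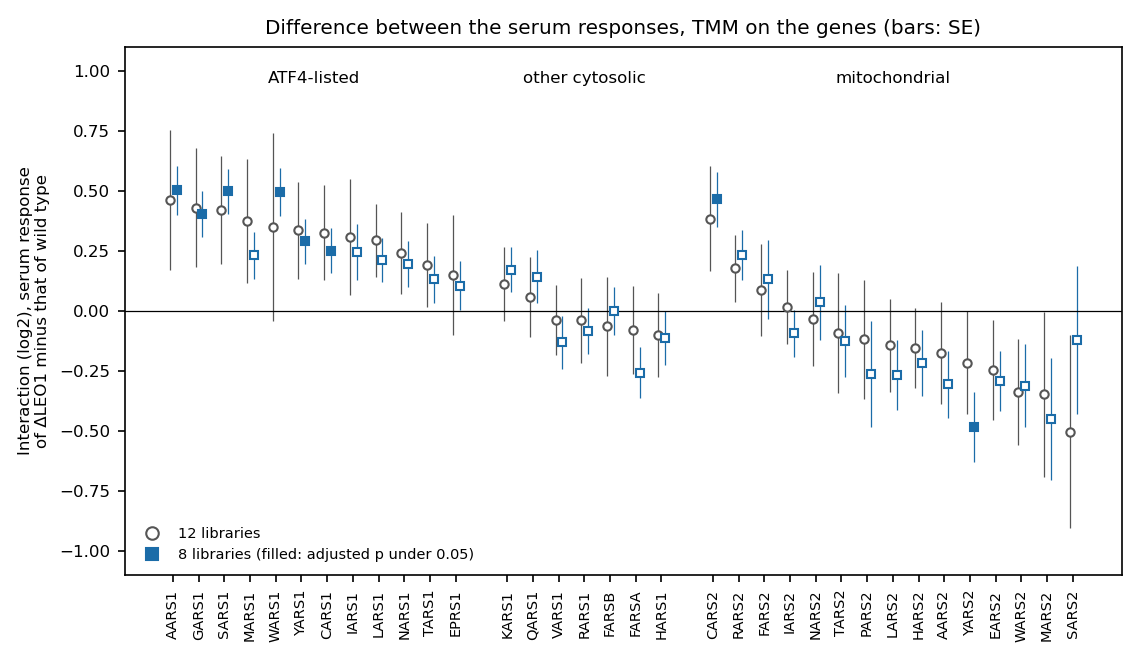
Interaction estimates on the relative scale (log2 serum response of ΔLEO1 minus that of WT, bars SE) with 12 libraries (circles) and with the highest-numbered library of each group left out (squares, filled where called), for the 12 listed ATF4 targets, the 7 other cytosolic and the 15 tested mitochondrial members. The listed targets all lie above 0, and the mitochondrial members spread to both sides with CARS2 highest.

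The cytosolic enzymes on the ATF4 list also moved together within groups. In library 9, 11 of 12 listed members lay above both other libraries of WT in 0.1% serum, with a median log2 ratio of 0.45, where 44.6% of all genes did. WARS1 (0.85), AARS1 (0.74), GARS1 (0.57) and SARS1 (0.52) led. Of the 7 other cytosolic members 1 lay above and 4 below. In library 12 all 12 listed members lay above both other libraries (median 0.27), against 42.4% of genes, and 6 of the 7 others lay below (median -0.27). In library 6 the listed members went the other way: 11 of 12 lay below both other libraries (median -0.25), against 42.8% of genes. Library 3 showed no common direction, with 7 above and 4 below.

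Other genes of the amino acid response moved with them. Of 17 such genes tested, among them the cystine carrier SLC7A11, the serine enzymes PSAT1 and PHGDH and ATF4, 16 lay above both other libraries in library 9 (median 0.86), 17 in library 12 (median 0.63), and 15 lay below in library 6 (median -0.40). Mitochondrial members gave 9 above and 4 below in library 9, 8 and 5 in library 12, and 4 and 5 in library 6. CARS2 followed the listed enzymes in library 9 (0.41) but in library 6 it was higher (0.24). WARS1 is also an interferon-induced gene: in library 6, where WARS1 was lowest (-0.93), 8 of 10 interferon-induced genes lay below both other libraries. In library 12, 8 of 10 lay below as well, while WARS1 was higher (0.20). In library 9, where WARS1 was highest (0.85), 6 lay above and 2 below. In library 3, where WARS1 was lower (-0.41), 5 lay above and 5 below. In ΔLEO1 in 10% serum 9 of these 10 genes were called higher than in WT per ERCC standard, while WARS1 was not (log2 change 0.26 ± 0.44 SE, edgeR adjusted p = 0.772). The part of these shifts between libraries in the group differences was not tested beyond the values without those libraries given above.

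**Figure D5:**
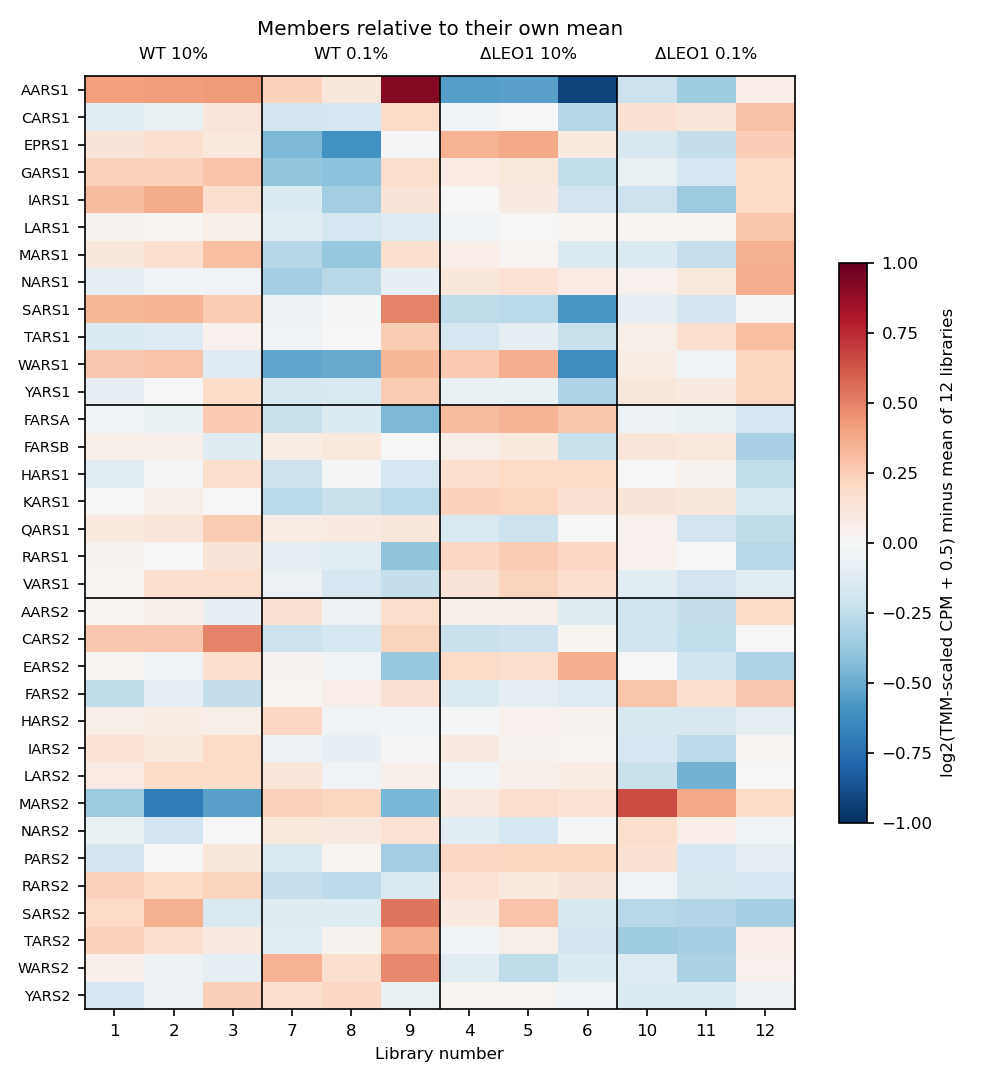
Each tested member in each of the 12 libraries as log2(TMM-scaled CPM + 0.5) minus its mean over the 12 libraries, with rows split into listed ATF4 targets, other cytosolic and mitochondrial members and columns by group. Library 9 is red and library 6 blue over most listed targets, library 12 is red over listed targets and blue over most other cytosolic members, and AARS1 is blue throughout ΔLEO1 in 10% serum.

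By place in the cell, members of the multisynthetase complex and free cytosolic enzymes gave these median log2 changes per ERCC standard: -1.24 and -1.12 for low serum in WT, with 6 of 7 and 7 of 12 called lower, and -1.08 and -0.97 in ΔLEO1, with 5 of 7 and 5 of 12. By structural class of the catalytic domain, class I and class II enzymes gave -1.16 and -1.06 in WT, with 11 of 18 and 6 of 16 called lower, and -1.06 and -1.09 in ΔLEO1, with 11 of 18 and 8 of 16. EPRS1, which has a domain of each class, was counted in class I only. Over all genes 36.1% were called lower in WT and 47.2% in ΔLEO1, and the class II counts are near these shares. Of the complex enzymes, EPRS1, KARS1, IARS1 and RARS1 were called lower in both genotypes, for which no share of all genes is given.

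The enzymes work with partners such as the scaffolds AIMP1 and AIMP2, the tRNA exporter XPOT and the mitochondrial amidotransferase subunits GATB, GATC and QRSL1, with which TARS3 was listed. Of 8 tested cytosolic partners, 4 fell in WT and 3 in ΔLEO1 in low serum on the ERCC scale and 0 rose, and of 4 mitochondrial partners 0 and 2 fell and 0 rose. These counts are small, and stand beside 36.1% of all genes called lower in WT and 47.2% in ΔLEO1. For the mitochondrial partners in WT, edgeR's test gave 1 with an unadjusted p under 0.05, and its quasi-likelihood test called 0. AIMP2, a scaffold of the complex, fell in WT (log2 change -1.46 ± 0.47 SE, edgeR adjusted p = 0.0155) and in ΔLEO1 (log2 change -1.52 ± 0.47 SE, edgeR adjusted p = 0.0128). TARS3, a close relative of TARS1, was lower on the relative scale in ΔLEO1 in 10% serum (log2 change -0.67 ± 0.14 SE, edgeR adjusted p = 1.06e-05) and in 0.1% (log2 change -0.47 ± 0.14 SE, edgeR adjusted p = 0.00395), where TARS1 was not called (-0.091 ± 0.12 SE and 0.10 ± 0.12 SE).

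After charging, the factors of translation take over. Of 5 cytosolic elongation factors tested, 1 fell in WT and 2 in ΔLEO1 on the ERCC scale. Of 9 mitochondrial factors, which include those of initiation, release and recycling as well as elongation, 3 and 6 fell. In both sets 0 rose, where 36.1% of all genes were called lower in WT and 47.2% in ΔLEO1. EEF1A1, which carries charged tRNA to the ribosome, was relatively higher in low serum in WT (log2 change 0.48 ± 0.16 SE, edgeR adjusted p = 0.0108) and ΔLEO1 (log2 change 0.58 ± 0.16 SE, edgeR adjusted p = 0.00209). GFM2, a mitochondrial ribosome-recycling factor, was relatively lower in WT (log2 change -0.81 ± 0.16 SE, edgeR adjusted p = 4.11e-06) and ΔLEO1 (log2 change -0.64 ± 0.15 SE, edgeR adjusted p = 0.000359). EEF1G is listed at 0 in all 12 libraries and was not tested. The annotation counted is not given, so this 0 may come from the counting and does not show that the gene is silent.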

How the data were processed

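Poly(A) RNA from 12 libraries was sequenced. Per the labels and the study's methods, the authors deposited raw read counts per gene (unit: counts) made by demultiplexing with bcl2fastq 2.20.0.422, aligning with STAR (2.7.10a in the submitters' processing notes; another version is given in the methods) to an Ensembl GRCh38 genome with ERCC sequences, and counting paired 58-base reads over exons with featureCounts 1.5.1, which by default leaves out reads that fall on more than 1 gene. Which annotation release was counted, and with what strand setting, is not given in the sources used here, so members with exons overlapping other genes have uncertain levels.

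Genes with over 1 CPM in at least 3 libraries were tested (13236) with edgeR 4.0.16 in R 4.3.3: a negative binomial fit of all 12 libraries in 4 groups and the likelihood ratio test (two-sided, Benjamini-Hochberg adjustment), after the study's methods, with ERCC totals times their TMM factor as library sizes. Alternatives were TMM on the genes, the quasi-likelihood test, DESeq2 1.42.0, other filters, a term for the highest-numbered library, and leaving out libraries. Leaving out each library on the TMM scale was added after seeing the data. The fit was first tested on simulated data, where it recovered 97 of 100 changes of 2-fold and made 13 false calls among 13236 genes. The simulation gave every gene the same fixed spread and set no library apart. It therefore does not show how the fit behaves with the spread seen here. Exon lengths came from GENCODE 29 (58453 of 60671 identifiers found), and symbols were found for 60401. Depth ran from 26240632 to 45315560 gene counts per library. Each group was 3 libraries taken from the labels. Members given full statistics were, in each comparison, the 3 cytosolic and 3 mitochondrial ones farthest from the median of all genes; others are named where called or for levels, pairs or libraries, after their values were seen. The members and lists were chosen with earlier results of these data known.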

Additional observations from a re-analysis of the deposited data

Results flagged for a closer look

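EdgeR's interaction term called 8 members on the relative scale when the highest-numbered library of each group was left out. This left 2 libraries a group that lay close together (chi-square per gene 3.05 to 12.3). The p-values therefore measure a small spread that may be technical. The 7 members called higher and 1 called lower, of 34, stand beside 17.5% of all genes called higher and 9.99% lower. The higher count is near its share and the lower count below it, so neither is a result about the members. On the ERCC scale with the same libraries all 34 estimates were negative. The log2 response of ΔLEO1 exceeded that of WT for AARS1 by 0.50 (adjusted p = 1.49e-05), SARS1 by 0.50 (adjusted p = 2.63e-06), WARS1 by 0.50 (adjusted p = 8.96e-06), CARS2 by 0.47 (adjusted p = 0.000438), GARS1 by 0.40 (adjusted p = 0.000195), YARS1 by 0.29 (adjusted p = 0.00992) and CARS1 by 0.25 (adjusted p = 0.0302). For YARS2 it was lower, -0.48 (adjusted p = 0.00531). With all 12 libraries these members had edgeR adjusted p-values of 0.412 to 0.83 on this scale.

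LARS1, the leucyl enzyme, was lower in each low-serum library than in any 10% library in WT (131, 130.5 and 134 CPM against 119, 114 and 118 CPM). In ΔLEO1 each low-serum library was higher (126, 128 and 130.4 CPM against 131, 131 and 156 CPM), although libraries 6, 10 and 11 lay close together. The log2 difference between the responses was 0.30 with 12 libraries, where the interaction term did not pass (edgeR adjusted p = 0.382).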

How the results depend on the processing

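With all 12 libraries on the ERCC scale, the members called were 13 cytosolic and 4 mitochondrial (serum in WT), 10 and 9 (serum in ΔLEO1) and 0 elsewhere, and only counts that moved are given below for each alternative. Apart from leaving out libraries singly, 284 values of named members kept direction and side of the threshold, 36 kept direction and passed it, 6 kept direction and lost it, and 28 turned sign. With the quasi-likelihood test, the counts of members called that moved by over 1.5 times came to 2 mitochondrial (serum in WT). On the relative scale, the counts of members called that moved by over 1.5 times came to 5 cytosolic (serum in WT), 4 cytosolic and 3 mitochondrial (serum in ΔLEO1), 3 cytosolic and 2 mitochondrial (genotype in 10% serum) and 3 cytosolic and 1 mitochondrial (genotype in 0.1% serum), and the log2 changes that turned sign were MARS2 0.67 (serum in WT), AARS1 0.51 (serum in ΔLEO1), TARS1 0.34 (serum in ΔLEO1), FARS2 0.38 (serum in ΔLEO1) and IARS1 -0.31 (genotype in 10% serum). With DESeq2 size factors on the genes, the counts of members called that moved by over 1.5 times came to 5 cytosolic (serum in WT), 4 cytosolic and 3 mitochondrial (serum in ΔLEO1), 2 cytosolic and 2 mitochondrial (genotype in 10% serum) and 3 cytosolic and 1 mitochondrial (genotype in 0.1% serum), and the log2 changes that turned sign were MARS2 0.67 (serum in WT), AARS1 0.51 (serum in ΔLEO1), TARS1 0.34 (serum in ΔLEO1), FARS2 0.38 (serum in ΔLEO1) and IARS1 -0.30 (genotype in 10% serum). With no filter on low counts, the counts of members called that moved by over 1.5 times came to 5 cytosolic and 2 mitochondrial (serum in WT) and 6 cytosolic and 3 mitochondrial (serum in ΔLEO1). With a term for the highest-numbered library, the counts of members called that moved by over 1.5 times came to 6 cytosolic (serum in ΔLEO1). On the relative scale with that term, the counts of members called that moved by over 1.5 times came to 6 cytosolic (serum in WT), 5 cytosolic and 3 mitochondrial (serum in ΔLEO1), 3 cytosolic and 2 mitochondrial (genotype in 10% serum) and 4 cytosolic and 1 mitochondrial (genotype in 0.1% serum), and the log2 changes that turned sign were MARS2 0.65 (serum in WT), AARS1 0.49 (serum in ΔLEO1), TARS1 0.34 (serum in ΔLEO1), FARS2 0.38 (serum in ΔLEO1) and IARS1 -0.31 (genotype in 10% serum). On the ERCC scale without libraries 3, 6, 9 and 12, the counts of members called that moved by over 1.5 times came to 13 mitochondrial (serum in WT) and 19 cytosolic and 15 mitochondrial (serum in ΔLEO1), and the cytosolic minus mitochondrial median was -0.21 (serum in WT), and the log2 changes that turned sign were IARS1 -0.039 (genotype in 10% serum), NARS1 -0.065 (genotype in 0.1% serum), EPRS1 -0.091 (genotype in 0.1% serum), MARS2 -0.069 (genotype in 0.1% serum), AARS1 -0.17 (interaction), GARS1 -0.28 (interaction), MARS1 -0.45 (interaction) and CARS2 -0.23 (interaction). On the relative scale without libraries 3, 6, 9 and 12, the counts of members called that moved by over 1.5 times came to 8 mitochondrial (serum in WT), 10 cytosolic and 4 mitochondrial (genotype in 10% serum), 9 cytosolic and 6 mitochondrial (genotype in 0.1% serum) and 6 cytosolic and 2 mitochondrial (interaction), and the cytosolic minus mitochondrial median was -0.23 (serum in WT), and the log2 changes that turned sign were MARS2 0.89 (serum in WT), AARS1 0.26 (serum in ΔLEO1), TARS1 0.25 (serum in ΔLEO1), FARS2 0.36 (serum in ΔLEO1) and IARS1 -0.30 (genotype in 10% serum). With only the libraries compared in the fit, the counts of members called that moved by over 1.5 times came to 10 mitochondrial (serum in WT) and 1 cytosolic and 1 mitochondrial (serum in ΔLEO1). Leaving out each library in turn on either scale, the counts of members called that moved ran over 0 to 19 cytosolic (serum in WT), 0 to 11 mitochondrial (serum in WT), 0 to 19 cytosolic (serum in ΔLEO1), 0 to 15 mitochondrial (serum in ΔLEO1), 0 to 3 cytosolic (genotype in 10% serum), 0 to 2 mitochondrial (genotype in 10% serum), 0 to 4 cytosolic (genotype in 0.1% serum), 0 to 3 mitochondrial (genotype in 0.1% serum) and 0 to 3 cytosolic (interaction). The cytosolic minus mitochondrial median ran over -0.23 to -0.10 (serum in WT), 0.18 to 0.33 (genotype in 0.1% serum) and 0.30 to 0.49 (interaction). The log2 changes of named members that turned sign ran over MARS2 -0.59 to 0.90 (serum in WT), AARS1 -1.22 to 0.60 (serum in ΔLEO1), TARS1 -1.33 to 0.40 (serum in ΔLEO1), FARS2 -1.22 to 0.41 (serum in ΔLEO1), IARS1 -0.38 to 0.26 (genotype in 10% serum), CARS2 -0.57 to 0.055 (genotype in 10% serum), AARS1 -0.94 to 0.15 (genotype in 0.1% serum), EPRS1 -0.086 to 1.08 (genotype in 0.1% serum), SARS2 -0.77 to 0.036 (genotype in 0.1% serum), WARS2 -0.81 to 0.24 (genotype in 0.1% serum), AARS1 -0.23 to 0.87 (interaction), GARS1 -0.27 to 0.80 (interaction), MARS1 -0.43 to 0.80 (interaction) and CARS2 -0.29 to 0.72 (interaction). The causes of these changes were not tested. On the ERCC scale without libraries 3, 6, 9 and 12, low serum lowered 72.4% of 12911 tested genes in WT and 93.1% in ΔLEO1. The calls of 13, 19 and 15 members stand beside these shares. No share of all genes is given for the fits with 1 library left out, on either scale. Their counts are not results about the members. A fit of only the libraries compared does not exist for the interaction, which uses every group. No paired analysis was possible because the library numbers run through the groups without repeating. The ERCC share ran from 1.09% to 3.24% within ΔLEO1 in 0.1% serum, and with standard errors of at least 0.44 on the log2 scale small differences per ERCC standard could not be seen. The depth of SARS2 and MARS2 also limits their values.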
